A study of Mus musculus with 12 samples.

Results

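The transcripts of 34 genes that encode proteins of the centromere and the kinetochore were followed through oogenesis in WT and Zar1/2-null mice. The 34 genes were taken from a fixed list of names, not from their values, and all 34 were found among the 23230 genes of the deposited table, 3 of them under older symbols (Ska2 as Fam33a, Ska3 as F630043A04Rik and Mis18a as 2610039C10Rik). All 34 also passed the filter used for testing, a level of at least 1 FPKM in at least 1 library, which 11502 genes passed. Cenpb passed it through 1 library alone, a Zar1/2-null GV library with 1.23 FPKM.

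The kinetochore is built in layers on each centromere. Nucleosomes that carry the histone H3 variant CENP-A mark the site, a constitutive network of CENP proteins sits on them, and the Mis12 complex joins that network to the Ndc80 complex, which grips the spindle microtubules. The growing mouse oocyte makes and stores these transcripts, stops transcription when fully grown, and then divides meiotically on the stored supply, much of which is degraded on the way. ZAR1 and its homolog ZAR2 (gene symbol Zar1l) are oocyte proteins that bind maternal mRNA.

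There were 6 groups with 2 libraries each, and every library was made from 10 oocytes by Smart-seq2, a method that copies full-length polyadenylated RNA into cDNA by oligo-dT priming. By the labels, growing oocytes came from females 13.5 days old. The methods text of the study gives a slightly younger age. Fully grown oocytes with an intact nucleus, the germinal vesicle (GV), came from females 21 days old, 44 h after PMSG injection. Ovulated oocytes in metaphase of the second meiotic division (MII) were collected 16 h after hCG injection, and no age is given for their donors in the labels. WT and Zar1/2-null mice had the same C57BL6/ICR hybrid background. The Zar1/2-null mice carried, in all their cells, a small CRISPR/Cas9 deletion with an early stop in Zar1 and a frame-shifting deletion in Zar2, so the loss was not limited to one stage. The labels do not say that the 2 libraries of a group came from different animals, and p-values measure only the spread between libraries, which may be technical.

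The values are FPKM, the number of sequenced fragments of a transcript after division by its length and by the size of the library. They had been multiplied by a factor from the ERCC spike-in, a fixed dose of synthetic RNA in every lysate, which sets a level on the scale of RNA per 10 oocytes. Summed FPKM per library ran from 121121 to 638056. Zar1l, a check of the labels, had 533 and 504 FPKM in WT GV oocytes and 20.9 and 19.6 FPKM in Zar1/2-null GV oocytes. Zar1, whose small deletion leaves most of its sequence, had 83.6 and 72.4 FPKM in WT MII oocytes and 189.6 and 194 FPKM in Zar1/2-null MII oocytes, so its mRNA is no check there. Of 12 oocyte markers, 11 or 12 reached 1 FPKM in every library and none was at 0. Of 12 granulosa and cumulus markers, 1 to 3 reached 1 FPKM in a library, and their sums, 3.94 to 24.0 FPKM, came mostly from Cyp19a1 and are given beside the genotype comparisons. The 6 immune markers summed to at most 3.18 FPKM. Among the 5 epithelial and stromal markers Krt8 had the largest genotype difference, with 72.8 and 88.0 FPKM in Zar1/2-null growing oocytes and 3.84 and 3.59 FPKM in WT growing oocytes. Krt18 was at 0 in both Zar1/2-null growing libraries and Epcam under 1 FPKM. Pecam1 ran from 2.45 to 10.7 FPKM over all libraries, with 2.45 and 3.13 FPKM in WT MII and 4.61 and 4.80 FPKM in Zar1/2-null MII oocytes. The part of these other markers in the results was not tested.

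Centromere and kinetochore transcripts were abundant in WT growing oocytes, where their median level was 42.2 FPKM against 8.74 FPKM for all 11502 genes. Of the 34 genes, 28 reached 10 FPKM and 16 reached 50 FPKM. The highest 5 in WT GV oocytes were Mis18a with 200.4 and 157 FPKM in the 2 libraries, Cenpn with 197 and 153, Cenph with 189 and 153, Cenpq with 208 and 118 and Nuf2 with 173 and 129. The libraries of each of these 5 overlapped with those of its neighbours in that order. Levels within one complex were far from equal. Nsl1 of the Mis12 complex had 1.04 and 0.507 FPKM and its partner Dsn1 124 and 92.3 FPKM in the same libraries. Hjurp, the chaperone that deposits CENP-A, had 1.60 and 1.42 FPKM, while Cenpa itself had 83.5 and 75.8 FPKM. Cenpb, which encodes the protein that binds the repeated DNA of mouse centromeres, reached 0.395 FPKM at most among the WT libraries, and all 4 MII libraries list it at 0.

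**Figure D1:**
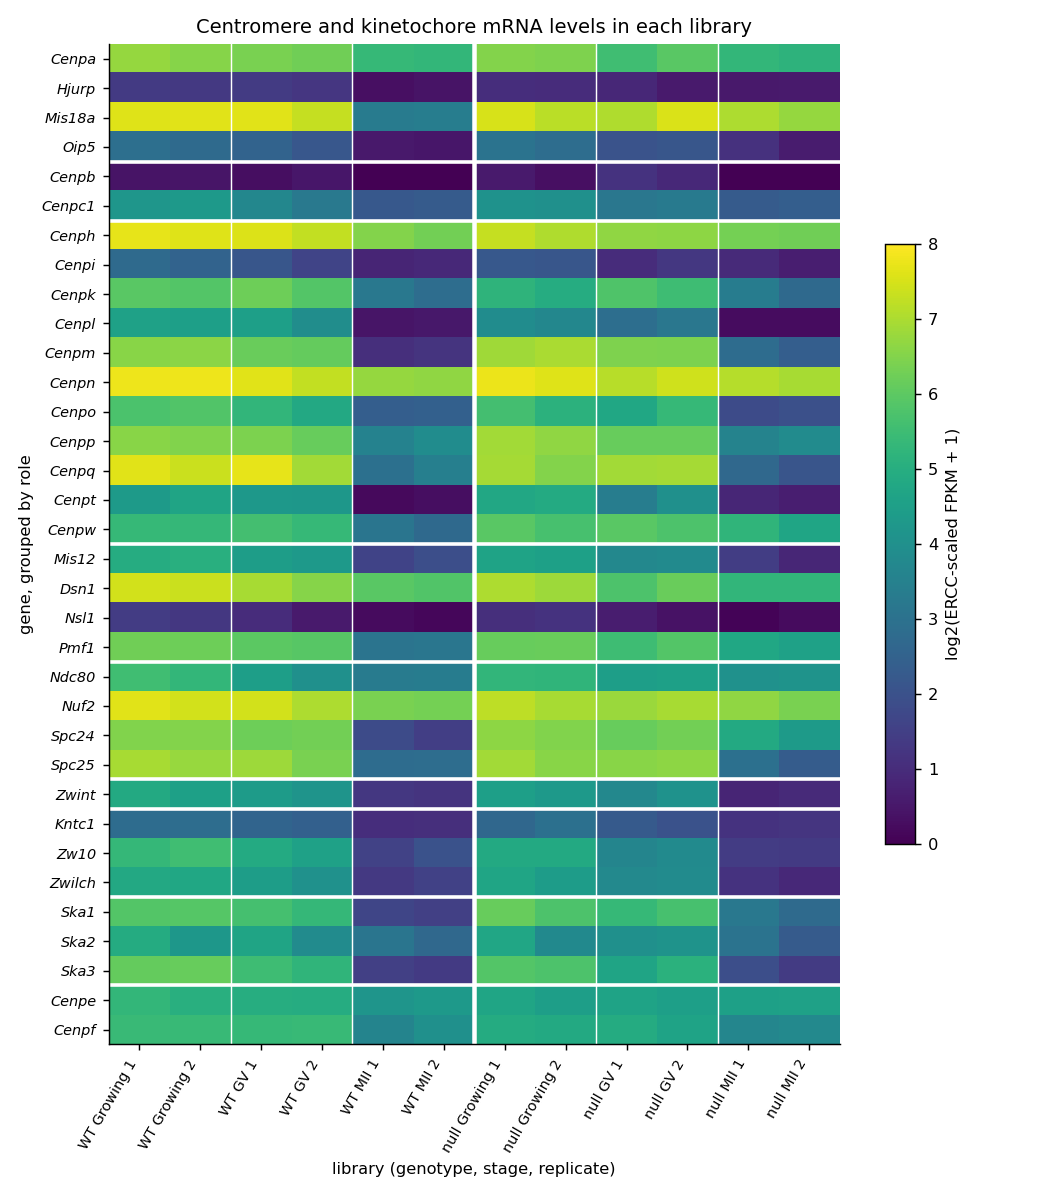
Heat map of the 34 genes (rows, grouped by role) in the 12 libraries (columns, by genotype, stage and replicate), coloured by log2(ERCC-scaled FPKM + 1). The MII columns are darker than the growing and GV columns in both genotypes, and Mis18a and Spc24 stay bright in the 2 Zar1/2-null MII libraries but not in the 2 WT MII libraries.

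During growth in WT oocytes, from the growing to the GV stage, 11 of the 34 transcripts fell and 0 rose in the limma fit over all 12 libraries, while 28.7% of all genes tested fell and 2.77% rose. The median log2 change of the 34 was -0.33, beside -0.29 for all genes. Both GV libraries lay below both growing libraries for 26 of the 34 and above them for 1, beside 59.5% and 10.2% of all genes. Ndc80, the microtubule-binding subunit that names its complex, had the largest fall, from 46.1 and 38.4 FPKM in growing to 21.4 and 15.1 FPKM in GV oocytes (log2 fold change -1.18, standard error 0.17, limma adjusted p = 0.00127). It was also the 1 transcript of the 11 whose call was kept under all 20 alternatives. Next came Cenpc1, which links the CENP-A nucleosome to the outer layers, with 17.3 and 19.1 FPKM in growing and 11.9 and 8.43 FPKM in GV oocytes (log2 fold change -0.80). The libraries of both genes were clear of overlap between the stages. Cenpi went from 5.74 and 4.80 to 3.45 and 2.13 FPKM (-0.74) and Ska3 from 67.4 and 70.1 to 45.2 and 36.7 FPKM (-0.74). Cenpo went from 52.1 and 55.5 to 37.3 and 27.7 FPKM (-0.72) and Zw10 from 39.0 and 45.3 to 28.7 and 23.0 FPKM (-0.69). Dsn1 went from 174 and 163 to 124 and 92.3 FPKM (-0.65) and its partner Mis12 from 29.7 and 31.9 to 20.7 and 18.8 FPKM (-0.62). Nsl1 (-0.56), also of the Mis12 complex, Zwilch (-0.55) and Cenpm (-0.47) made up the 11. With the ERCC factor divided out, 1 of the 34 fell and 0 rose, beside 365 and 426 of the 12155 genes then tested. The median of all genes moved from -0.29 to 0.03.

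On maturation in WT oocytes, from GV to MII, all 34 transcripts fell on the ERCC scale, with libraries that did not overlap, in a comparison in which 93.4% of all genes fell and 0.104% rose by the test, and 97.1% had lower and 0.2% higher libraries without overlap. The 34 had a median log2 change of -2.57, beside -1.28 over all genes. Part of this gap comes from level, since the 1 FPKM added before taking logs shrinks the changes of low genes. The median WT GV level was 36.5 FPKM for the 34 and 6.87 FPKM for all genes. With 0.1 FPKM added instead, the median changes were -2.79 and -2.12. The stricter filter of 5 FPKM on the mean gave -2.72 and -2.03. The size of the fall spread widely. Cenpm, of the constitutive network, went from 70.5 and 68.4 FPKM to 1.09 and 1.32 FPKM (log2 fold change -5.0, standard error 0.16, limma adjusted p = 2.5e-10) and kept 1.74% of its GV mean. Cenpt, whose protein recruits the Ndc80 complex, went from 18.3 and 17.8 to 0.154 and 0.233 FPKM. Ska3 went from 45.2 and 36.7 to 1.85 and 1.56 FPKM, and Ska1 from 49.1 and 39.2 to 2.16 and 1.88 FPKM. Of their GV means, Cenpt kept 1.07%, Cenpl 2.23%, Spc24 2.87%, Ska3 4.16%, Ska1 4.58%, Cenpq 5.09%, Mis18a 5.15% and Spc25 6.33%. At the other end, Cenpe, the plus-end directed kinesin of the outer corona, went from 30.9 and 30.1 to 16.9 and 19.2 FPKM (log2 fold change -0.73, standard error 0.15, limma adjusted p = 0.000586) and kept 59.3%. Cenpn kept 58.8%, Nuf2 53.9%, Dsn1 53.7%, Ndc80 50.4%, Cenpa 49.1% and Cenph 49.0%. Since cDNA was primed on poly(A) tails, fewer molecules and shorter tails cannot be told apart here, nor can less RNA per oocyte and fewer intact oocytes in a library.

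These directions depend on the spike-in. With the ERCC factor divided out, each library again stood for a fixed total of RNA. Then 20 of the 34 transcripts fell and 7 rose from GV to MII, beside 5603 and 2332 of the 12155 genes tested. With median scaling 19 fell and 9 rose, beside 4574 and 3449 of 11175 genes. The transcripts whose estimates changed sign under both were Cenpa, Cenpc1, Cenph, Cenpi, Cenpn, Dsn1, Ndc80, Nuf2, Ska2, Cenpe and Cenpf, joined under median scaling by Kntc1. The 34 still had a lower median (-1.02) than all genes did (-0.43) when the factor was divided out. The shrinking of changes in low genes bears on this comparison too.

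The 3′ ends of the transcripts were read for the letters of the cytoplasmic polyadenylation element (CPE), a short U-rich signal through which stored oocyte mRNAs are known to gain poly(A) tail at maturation. TTTTAT or TTTTAAT on the transcript strand alone was looked for in the last 100 bases of the annotated 3′UTR, without regard to overlap with other motifs, and this search was chosen after the maturation values were known. The letters were present in 5 of the 31 genes with a 3′UTR that long (16.1%), beside 20.0% of the 9790 such genes tested. The windows of 30 bases around them are shown because these 5 genes all fell by less than the median of the 34, with the CPE letters in capitals, in the mm9 build (NCBIM37), 5′ to 3′ on the transcript strand.
Cenpe (chr3:134936441-134936470, plus strand): aattatttatTTTTATacattgcgaagaat
Cenpn (chr8:119465331-119465360, plus strand): tctcgtgatcTTTTATccatggcacactga
Ndc80 (chr17:71845502-71845531, minus strand): taacatagtaTTTTATccccaaattatgat
Cenph (chr13:101529670-101529699, minus strand): tgcattttacTTTTATaacttaaggaataa
Ska2 (chr11:86938071-86938100, plus strand): atggttacctTTTTAATgtatttgcatcca

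In the 5 genes with the letters, the WT change from GV to MII ran from -1.36 to -0.73 (median log2 fold change -0.90). In the other 26 it ran from -5.0 to -0.62 (median -2.62). Over all genes the medians were -1.05 with the letters and -1.35 without. The value of -0.62 is that of Nsl1, a transcript near or under 1 FPKM at both stages, which kept 18.6% of its GV mean, and the scale understates the change of such low genes. Nuf2, Dsn1, Cenpa, Hjurp, Cenpi and Cenpc1 lacked the letters in this window and had changes within the range of the 5. Among them Hjurp and Cenpi were low, with 1.60 and 1.42 FPKM and 3.45 and 2.13 FPKM in WT GV oocytes. In a window of 200 bases, 7 of 27 genes held the letters (median -1.02) and 20 did not (median -2.84). The match is to letters alone and says nothing of binding. For contrast, the 3′ ends of Spc24 and Spc25, which encode the partners of a heterodimer and fell steeply in WT oocytes, are given with the nuclear polyadenylation signal in capitals. Neither held the CPE letters in its last 100 bases, while 83.9% of the 31 genes and 80.3% of the 9790 held AATAAA or ATTAAA there.
Spc24 (chr9:21559886-21559915, minus strand): actcacatacattaAATAAAtactcttttt
Spc25 (chr2:69031956-69031985, minus strand): tgcttgtgttAATAAActtgcttgttgtct

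**Figure D2:**
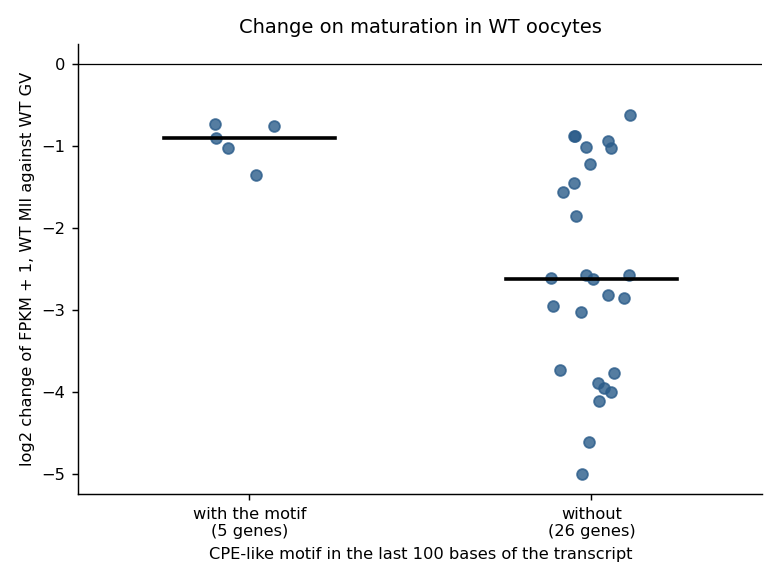
Log2 change of FPKM + 1 from GV to MII in WT oocytes (vertical axis) for the 5 genes with and the 26 genes without the CPE letters in the last 100 bases of the 3′UTR (horizontal axis); each point is a gene, spread sideways for sight, and the bar is the median. The 5 points on the left lie between -1.36 and -0.73, and those on the right from -5.0 to -0.62, the highest being Nsl1 at near or under 1 FPKM.

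In Zar1/2-null growing oocytes 6 of the 34 transcripts were lower than in WT and 0 were higher, where 24.4% of all genes were lower and 10.6% higher. The median log2 difference of the 34 was -0.26, beside -0.16 for all genes. Cenpk, part of the CENP-H/I/K group of the constitutive network, had 60.6 and 57.7 FPKM in WT and 35.9 and 30.1 FPKM in Zar1/2-null libraries (log2 fold change -0.83, standard error 0.22, limma adjusted p = 0.0148). Cenpl, of the same network, had 23.0 and 22.0 FPKM in WT and 13.8 and 12.1 FPKM in Zar1/2-null libraries (log2 fold change -0.75, standard error 0.18, limma adjusted p = 0.00908). The 2 genotypes did not overlap for either gene. Zw10 (-0.58), Cenpe (-0.57), Cenpf (-0.52) and Cenph (-0.47) were the other 4. Their levels were 39.0 and 45.3 FPKM in WT and 27.8 and 27.9 in Zar1/2-null oocytes for Zw10, and 37.9 and 32.1 against 24.9 and 21.5 for Cenpe. Cenpf had 41.9 and 40.9 FPKM in WT and 29.5 and 27.9 in Zar1/2-null oocytes, and Cenph 208 and 193 FPKM in WT and 158 and 132 FPKM in Zar1/2-null libraries. None of the 6 calls was kept under all 20 alternatives, and 0 remained without Zar1/2-null Growing replicate 2. With the ERCC factor divided out 4 of the 34 were higher and 1 lower, beside 1756 and 1425 of the 12155 genes then tested. The all-gene median moved from -0.16 to 0.08. The granulosa and cumulus markers summed to 24.0 and 20.2 FPKM in WT and 9.93 and 5.48 FPKM in Zar1/2-null growing libraries, Cyp19a1 being lower in the latter (log2 fold change -1.76, limma adjusted p = 0.00177), and their part was not tested. No gene of the 34 passed a 3-fold difference between group means (0.982% of all genes were past it upward and 3.54% downward).

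In Zar1/2-null GV oocytes 11 of the 34 transcripts were lower and 1 was higher, where 40.6% of all genes were lower and 2.83% higher. The median log2 difference was -0.36 for the 34 and -0.38 for all genes. Cenpl had 21.7 and 14.2 FPKM in WT and 6.38 and 8.02 FPKM in Zar1/2-null oocytes (log2 fold change -1.18, standard error 0.18, limma adjusted p = 0.00059). Zw10, a subunit of the complex that brings dynein and checkpoint proteins to the kinetochore, had 28.7 and 23.0 FPKM in WT and 11.5 and 13.1 FPKM in Zar1/2-null libraries (log2 fold change -1.0, standard error 0.17, limma adjusted p = 0.00111). Both were clear of overlap between genotypes and were called under all 20 alternatives. Dsn1 had 124 and 92.3 FPKM in WT and 53.4 and 71.4 FPKM in Zar1/2-null oocytes (log2 fold change -0.78), and Cenph 189 and 153 FPKM in WT and 100.1 and 99.3 FPKM in Zar1/2-null libraries (-0.76). Cenpi, another member of the CENP-H/I/K group, had 3.45 and 2.13 FPKM in WT and 1.02 and 1.46 FPKM in Zar1/2-null oocytes (-0.74). The Zar1/2-null libraries of these 3 genes were all lower than the WT libraries.

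Cenpf, a large coiled-coil protein of the corona, had 40.1 and 40.8 FPKM in WT GV and 29.3 and 23.7 FPKM in Zar1/2-null GV oocytes (log2 fold change -0.60). Mis12 had 20.7 and 18.8 FPKM in WT and 12.2 and 13.3 FPKM in Zar1/2-null libraries (-0.59), with a stretch of 231 bases of its exons shared with Derl2 on the opposite strand, whose reads cannot be told apart in a library without strand. Cenpa had 83.5 and 75.8 FPKM in WT and 45.7 and 60.3 FPKM in Zar1/2-null oocytes (log2 fold change -0.59, standard error 0.16, limma adjusted p = 0.0129), and its chaperone Hjurp had 1.60 and 1.42 FPKM in WT and 0.862 and 0.508 FPKM in Zar1/2-null libraries (log2 fold change -0.58, standard error 0.13, limma adjusted p = 0.00418). The libraries of these 4 genes did not overlap between genotypes. Cenpt (-0.55) and Cenpe (-0.40) were the remaining 2 lower transcripts. The 1 higher transcript was Cenpb, with 0.234 and 0.395 FPKM in WT and 1.23 and 0.904 FPKM in Zar1/2-null oocytes (log2 fold change 0.65, standard error 0.13, limma adjusted p = 0.00223), and the group in which it was higher is the group through which it passed the filter. The granulosa and cumulus markers summed to 13.7 and 12.2 FPKM in WT and 9.25 and 11.1 FPKM in Zar1/2-null GV libraries, with Inha at 0.410 and 0.512 FPKM in WT and 1.99 and 1.73 FPKM in Zar1/2-null libraries, and their part was not tested. As in growing oocytes, 0 of the 34 passed 3-fold in either direction at GV (0.461% of all genes upward and 4.20% downward). With the ERCC factor divided out, or with median scaling, 5 of the 34 were higher and 2 lower in the Zar1/2-null GV oocytes. Of 12155 genes tested without the factor 882 were higher and 1590 lower, and of 11175 with median scaling 1109 and 1279. Among transcripts called with ERCC scaling or under the alternative, Cenpe alone changed sign. The median of the 34 moved from -0.36 to 0.06 without the factor and to 0.14 with median scaling. The all-gene median moved from -0.38 to -0.03 without the factor.

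In Zar1/2-null MII oocytes 7 of the 34 transcripts were higher and 2 lower than in WT, where 21.5% of all genes were higher and 10.3% lower. The 7 were Mis18a, Spc24, Cenpw, Pmf1, Cenpm, Ska1 and Ndc80, and the 2 were Dsn1 and Mis12. All but Ndc80 of the 7 were also past 3-fold, so that 6 of the 34 (17.6%) passed that rule upward and 0 downward, beside 7.49% and 1.32% of all genes. The medians, 0.01 for the 34 and 0.06 for all genes, lay near 0. The 7 higher calls were kept under all 20 alternatives. The granulosa and cumulus markers summed to 3.94 and 4.05 FPKM in WT and 7.20 and 6.01 FPKM in Zar1/2-null MII libraries, with 1 of the 12 at 1 FPKM or more in each, and their part was not tested. When the ERCC factor was divided out 8 of the 34 were higher and 10 lower, beside 2908 and 2761 of the 12155 genes then tested. With median scaling 8 were higher and 8 lower, beside 2930 and 2738 of 11175 genes.

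**Figure D3:**
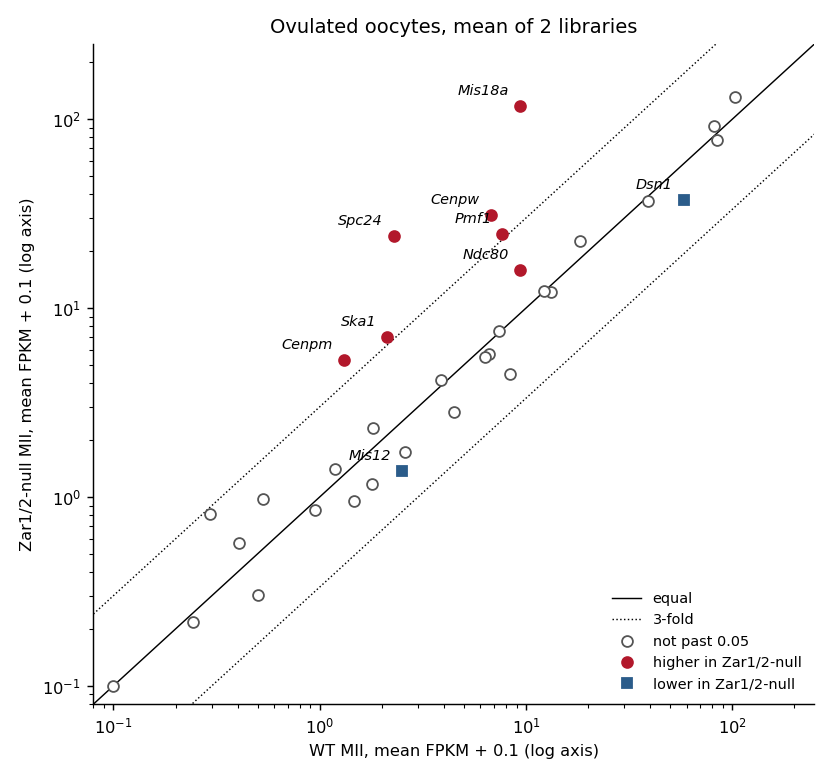
Mean FPKM + 0.1 of 2 libraries in WT MII oocytes (horizontal, log axis) and Zar1/2-null MII oocytes (vertical, log axis) for the 34 genes; the solid line marks equal values and the dotted lines 3-fold on this scale. Filled circles are the 7 transcripts higher in Zar1/2-null oocytes by limma, led by Mis18a and Spc24, squares are Dsn1 and Mis12, which were lower, and open circles did not pass an adjusted p of 0.05.

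The proteins that renew CENP-A chromatin include the Mis18 complex, formed by MIS18A and OIP5, which directs the chaperone HJURP to the centromere. Mis18a (chr16:90719557-90727649) had 8.99 and 9.44 FPKM in WT MII and 129.8 and 106 FPKM in Zar1/2-null MII oocytes (log2 fold change 3.53, standard error 0.20, limma adjusted p = 1.41e-07), a 12.8-fold ratio of means. Before maturation its libraries lay at 200.4 and 157 FPKM in WT and 132 and 184 FPKM in Zar1/2-null GV oocytes, which overlapped. Of the GV mean, 5.15% was left at MII in WT and 74.4% in Zar1/2-null oocytes. Its partner Oip5, which shares 172 bases of exon with Nusap1 on the opposite strand, had 0.469 and 0.397 FPKM in WT and 1.22 and 0.531 FPKM in Zar1/2-null MII oocytes (log2 fold change 0.36, standard error 0.19, limma adjusted p = 0.172). Hjurp had 0.266 and 0.348 FPKM in WT and 0.453 and 0.494 FPKM in Zar1/2-null libraries (log2 fold change 0.17, standard error 0.13, limma adjusted p = 0.358). Both were under 1 FPKM on average. Cenpa, the substrate of this machinery, had 40.1 and 38.0 FPKM in WT and 38.4 and 35.4 FPKM in Zar1/2-null MII oocytes (log2 fold change -0.08, standard error 0.16, limma adjusted p = 0.795), with overlapping libraries.

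Of the 2 genes listed under binding of centromere DNA and the CENP-A nucleosome, Cenpc1 had 3.63 and 3.89 FPKM in WT MII and 3.88 and 4.24 FPKM in Zar1/2-null MII oocytes (log2 fold change 0.09, limma adjusted p = 0.771), and these libraries overlapped. A second copy of its transcript lies on chromosome 2, with 93.2% identity over 88.6% of the length, and reads of the 2 copies may have been shared. Cenpb was at 0 in both genotypes, and no fold is given.

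In the constitutive centromere-associated network, which stays at the centromere throughout the cell cycle, 2 of 11 transcripts were higher in Zar1/2-null MII oocytes and 0 lower, beside 21.5% and 10.3% of all genes, with a median log2 difference of 0.01. Cenpw (chr10:29915817-29920346), which encodes a small histone-fold protein, had 7.58 and 5.71 FPKM in WT and 36.8 and 25.0 FPKM in Zar1/2-null libraries (log2 fold change 2.05, standard error 0.21, limma adjusted p = 1.43e-05). Cenpm (chr15:82064209-82075177) had 1.09 and 1.32 FPKM in WT and 6.16 and 4.29 FPKM in Zar1/2-null libraries (log2 fold change 1.48, standard error 0.16, limma adjusted p = 2.51e-05). Neither gene's libraries overlapped between genotypes. Cenpt, the histone-fold partner of CENP-W, was at much lower levels, 0.154 and 0.233 FPKM in WT and 0.814 and 0.601 FPKM in Zar1/2-null libraries (log2 fold change 0.51, standard error 0.19, limma adjusted p = 0.0642). Cenpq had 6.67 and 9.91 FPKM in WT and 5.47 and 3.30 FPKM in Zar1/2-null libraries (log2 fold change -0.79, standard error 0.29, limma adjusted p = 0.0578), with the Zar1/2-null libraries below the WT libraries. The remaining 7 (Cenph, Cenpi, Cenpk, Cenpl, Cenpn, Cenpo and Cenpp) had log2 differences from -0.53 to 0.34, none past the threshold. Cenpo shared 1046 bases of exon with Adcy3 and Cenpq 73 bases with Mut, each on the opposite strand.

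The Mis12 complex has 4 subunits in equal number, yet its transcripts went different ways at MII. Pmf1 (chr3:88198061-88214238) was higher in Zar1/2-null oocytes, with 7.39 and 7.76 FPKM in WT and 26.4 and 22.7 FPKM in Zar1/2-null libraries (log2 fold change 1.57, standard error 0.15, limma adjusted p = 1.01e-05). Dsn1 was lower, with 60.6 and 55.5 FPKM in WT and 37.7 and 37.1 FPKM in Zar1/2-null libraries (log2 fold change -0.62, standard error 0.19, limma adjusted p = 0.0241), and so was Mis12, with 2.08 and 2.75 FPKM in WT and 1.73 and 0.820 FPKM in Zar1/2-null libraries (log2 fold change -0.61, standard error 0.19, limma adjusted p = 0.0284). None of these 3 overlapped between genotypes. Nsl1 was under 1 FPKM in all 4 MII libraries (log2 fold change -0.03). The ratio of Pmf1 to Dsn1, which no scaling of whole libraries can change, was 0.122 and 0.140 in WT MII libraries and 0.702 and 0.611 in Zar1/2-null MII libraries, while in the 4 GV libraries it lay between 0.508 and 0.836. The Dsn1 call was lost in each of the 4 fits that left out an MII library (limma adjusted p from 0.0628 to 0.123), and the Mis12 call without WT MII replicate 2 (0.187) and without Zar1/2-null MII replicate 2 (0.279).

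The Ndc80 complex joins 2 dimers, NDC80 with NUF2 at the microtubule end and SPC24 with SPC25 at the centromere end. Spc24 (chr9:21559886-21564733) had 89.2 and 90.9 FPKM in WT growing oocytes, 74.7 and 77.9 at GV and 2.56 and 1.82 at MII. In Zar1/2-null oocytes it had 98.5 and 89.2 FPKM in growing oocytes, 70.0 and 77.6 at GV and 28.2 and 19.5 at MII. The genotypes overlapped at GV and lay 10.9-fold apart in their MII means (log2 fold change 2.95, standard error 0.19, limma adjusted p = 2.84e-07). Spc25 had 113 and 83.2 FPKM at GV and 6.07 and 6.33 at MII in WT oocytes, and 95.5 and 98.2 at GV and 6.81 and 4.04 at MII in Zar1/2-null oocytes. At MII its genotypes overlapped (log2 fold change -0.20, standard error 0.22, limma adjusted p = 0.574). The ratio of Spc24 to Spc25 lay between 0.662 and 0.936 in the 8 growing and GV libraries, was 0.422 and 0.287 in WT MII libraries and was 4.15 and 4.83 in Zar1/2-null MII libraries.

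Ndc80 had 21.4 and 15.1 FPKM at GV and 9.10 and 9.30 at MII in WT oocytes, and 21.6 and 22.4 at GV and 15.6 and 16.1 at MII in Zar1/2-null oocytes. At MII the Zar1/2-null libraries were 1.72-fold higher in the mean (log2 fold change 0.72, standard error 0.17, limma adjusted p = 0.00646). Nuf2 had 173 and 129 FPKM at GV and 83.3 and 79.3 at MII in WT oocytes, and 109.6 and 123 at GV and 101 and 83.7 at MII in Zar1/2-null oocytes. Its MII libraries did not overlap, but the difference did not pass the test (log2 fold change 0.17, standard error 0.18, limma adjusted p = 0.548). In WT oocytes Ndc80 and Nuf2 had 50.4% and 53.9% of their GV means left at MII, and Spc24 and Spc25 had 2.87% and 6.33%.

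**Figure D4:**
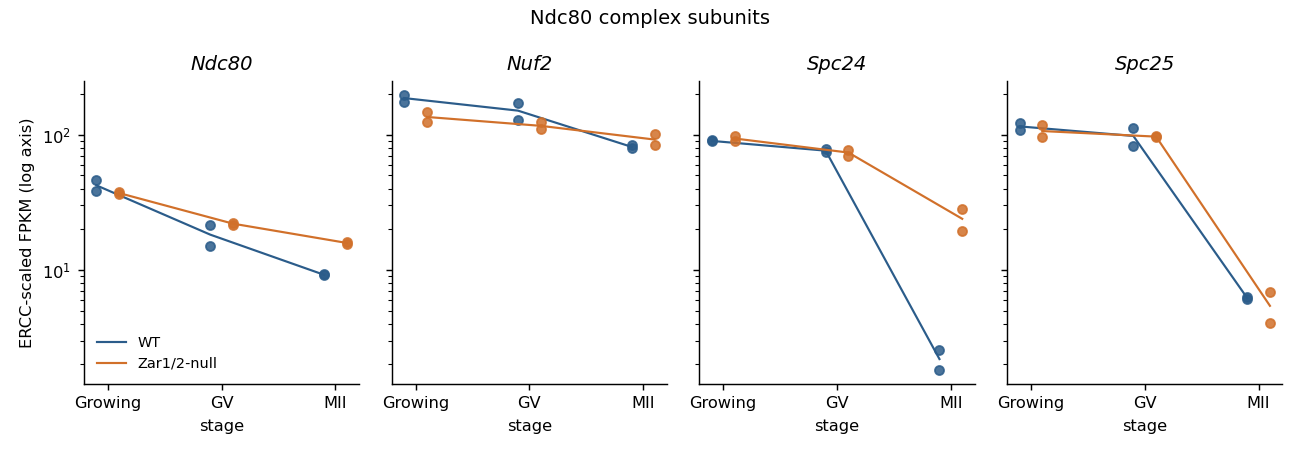
ERCC-scaled FPKM (log axis) of the 4 Ndc80 complex subunits at 3 stages in WT (blue) and Zar1/2-null (orange) oocytes; points are single libraries and lines join the means of 2. Spc24 drops to 2.56 and 1.82 FPKM in WT MII libraries and stays at 28.2 and 19.5 FPKM in Zar1/2-null MII libraries, whereas Spc25 drops in both genotypes.

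The Ska complex, which follows the ends of shortening microtubules, has 3 subunits. Ska1 had 2.16 and 1.88 FPKM in WT MII and 8.12 and 5.78 FPKM in Zar1/2-null MII oocytes (log2 fold change 1.38, standard error 0.20, limma adjusted p = 0.000246), without overlap. Ska3 had 1.85 and 1.56 FPKM in WT and 2.80 and 1.63 FPKM in Zar1/2-null libraries (log2 fold change 0.23, standard error 0.20, limma adjusted p = 0.471), and Ska2 7.55 and 5.54 FPKM in WT and 7.22 and 3.96 FPKM in Zar1/2-null libraries (log2 fold change -0.23, standard error 0.37, limma adjusted p = 0.73), both with overlap. Ska2 shared 329 bases of exon with Gm11491 on the opposite strand.

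Of the genes for the Rod-Zw10-Zwilch complex, which recruits dynein and the checkpoint protein MAD1, 0 of 3 passed the test at MII. Zw10 had 1.98 and 3.02 FPKM in WT and 1.68 and 1.57 FPKM in Zar1/2-null libraries (log2 fold change -0.40). Zwilch, which shared 254 bases of exon with Lctl on the opposite strand, had 1.50 and 1.89 FPKM in WT and 1.23 and 0.907 FPKM in Zar1/2-null libraries (-0.38), and Kntc1, which encodes the Rod subunit, 1.08 and 1.09 FPKM in WT and 1.27 and 1.33 FPKM in Zar1/2-null libraries (0.14). The Zar1/2-null libraries lay below WT for Zw10 and Zwilch and above WT for Kntc1. Zwint, a binding partner of KNL1, had 1.44 and 1.28 FPKM in WT and 0.792 and 0.917 FPKM in Zar1/2-null libraries (log2 fold change -0.35, standard error 0.17, limma adjusted p = 0.146). In the corona, Cenpe had 16.9 and 19.2 FPKM in WT and 22.4 and 22.9 FPKM in Zar1/2-null libraries (log2 fold change 0.31, standard error 0.15, limma adjusted p = 0.132), and Cenpf 11.3 and 15.0 FPKM in WT and 11.7 and 12.6 FPKM in Zar1/2-null libraries (log2 fold change -0.10, standard error 0.16, limma adjusted p = 0.74). Libraries did not overlap for Cenpe and overlapped for Cenpf.

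Over the 34 genes, 14 had Zar1/2-null MII libraries above both WT libraries and 8 had them below both, beside 43.5% and 27.8% of all genes. At GV the counts were 4 above and 19 below, beside 6.79% and 63.6% of all genes, and in growing oocytes 4 above and 23 below, beside 22.4% and 47.4%.

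**Figure D5:**
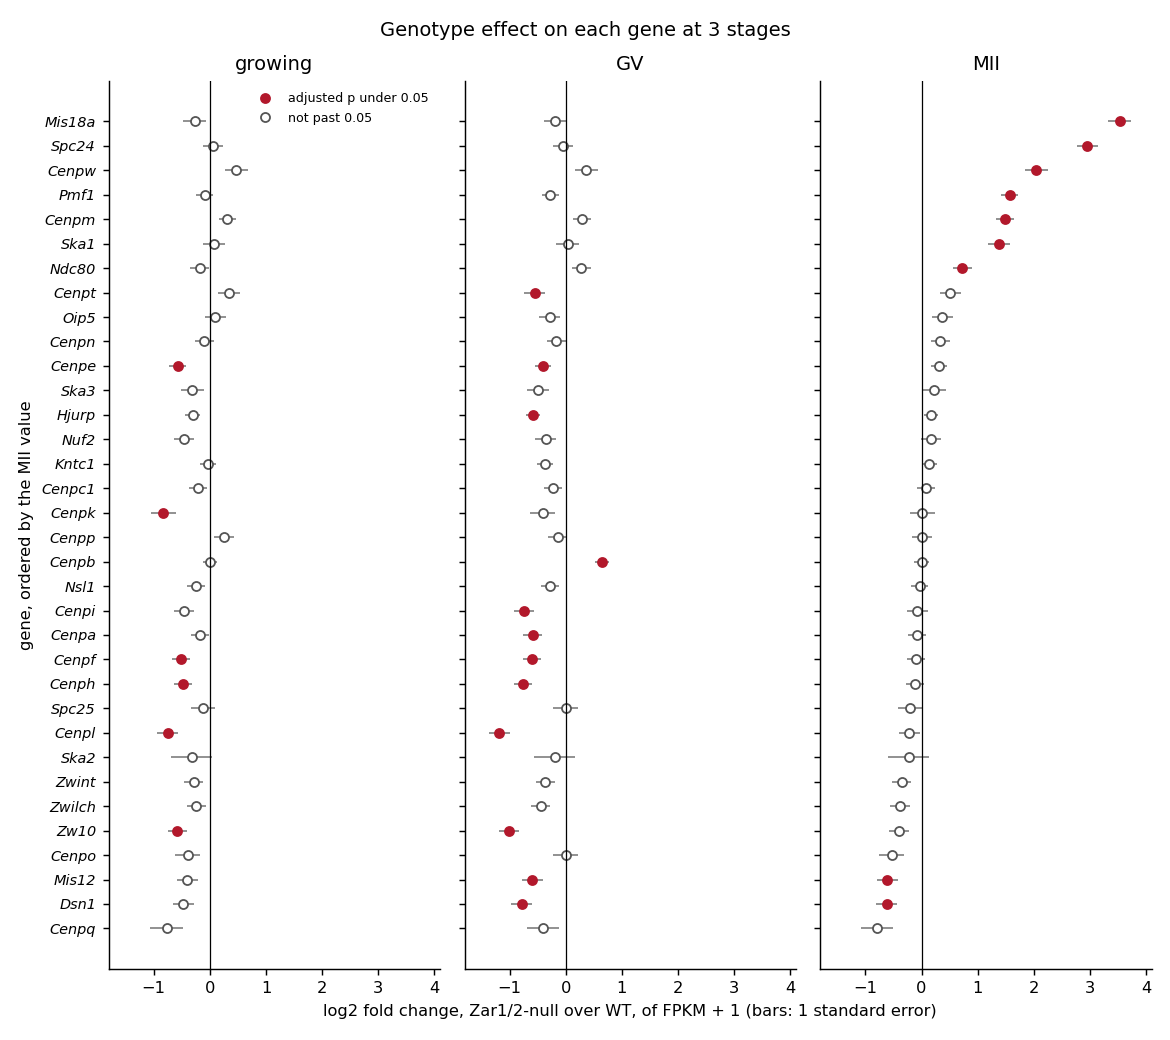
Log2 fold change of FPKM + 1, Zar1/2-null over WT (horizontal axis), for each of the 34 genes (rows, ordered by the MII value) in growing, GV and MII oocytes; bars are 1 standard error from limma and filled points passed an adjusted p of 0.05. The values above 1 are those of Mis18a, Spc24, Cenpw, Pmf1, Cenpm and Ska1 at MII, and no gene passes 1 upward in growing or GV oocytes.

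Whether the change on maturation itself differed between genotypes was tested with an interaction term, the Zar1/2-null change from GV to MII minus the WT change. It was positive past the threshold in 11 of the 34 transcripts and negative in 1, where 33.9% and 0.643% of all genes passed, and the medians were 0.51 for the 34 and 0.48 for all genes. A positive value means a smaller fall in Zar1/2-null oocytes on this scale, and it takes in any effect of their earlier meiotic phase. Mis18a (log2 difference 3.72, standard error 0.29, limma adjusted p = 2.95e-06) and Spc24 (log2 difference 3.0, standard error 0.26, limma adjusted p = 7.5e-06) had the largest. Pmf1 (1.85) kept 48.6% of its GV mean in Zar1/2-null oocytes and 12.4% in WT oocytes, Cenpw (1.68) kept 54.1% and 15.0%, and Ska1 (1.35) kept 15.4% and 4.58%. Cenpm (1.18) kept 6.10% and 1.74%, and Cenpt (1.07) 5.76% and 1.07%.

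Before maturation Pmf1 had 62.9 and 59.3 FPKM in WT GV and 44.6 and 56.5 FPKM in Zar1/2-null GV oocytes, and Cenpt 18.3 and 17.8 FPKM in WT and 9.49 and 15.1 FPKM in Zar1/2-null GV oocytes, without overlap. The GV difference passed the test for Cenpt and not for Pmf1 (limma adjusted p = 0.155). Cenpw had 47.9 and 40.4 FPKM in WT GV and 61.0 and 53.2 FPKM in Zar1/2-null GV oocytes, and Cenpm 70.5 and 68.4 FPKM in WT and 87.5 and 83.9 FPKM in Zar1/2-null GV oocytes, also without overlap but short of the threshold (limma adjusted p = 0.167 and 0.148). Ska1, at 49.1 and 39.2 FPKM in WT GV and 40.4 and 49.98 FPKM in Zar1/2-null GV oocytes, overlapped between genotypes. Mis18a, Spc24 and these 5 were called under all 20 alternatives. Cenpl (0.96), Hjurp (0.75), Cenpe (0.71) and Cenph (0.65) were the other 4, and each of them was already lower in Zar1/2-null GV oocytes by the test. In Zar1/2-null and then WT oocytes, Hjurp kept 69.1% and 20.3% of its GV mean, Cenpe 99.1% and 59.3%, and Cenph 77.6% and 49.0%. Cenpl kept 2.79% and 2.23%, much the same share, its MII levels were under the added 1 FPKM, and its call was lost with a pseudocount of 0.1 FPKM (log2 difference 0.55, limma adjusted p = 0.176). The 1 negative value, that of Cenpb (-0.65), sets a GV level of at most 1.23 FPKM against a listed 0 at MII, and since Cenpb was tested through its high group alone, nothing is read from it. With the ERCC factor divided out 7 were positive and 6 negative, and with median scaling 7 and 7. Of 12155 genes tested without the factor 1739 were positive and 750 negative, and of 11175 with median scaling 1678 and 1032. The median of the centromere and kinetochore transcripts moved from 0.51 to -0.15 and -0.22, so its sign depended on the spike-in. The all-gene median moved from 0.48 to 0.03 and -0.03.

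The 7 transcripts higher in Zar1/2-null MII oocytes were 786 to 2669 bases long (median 1349), while the other 27 had a median of 2405 bases. The annotated transcript of Mis18a, the shortest, holds no 3′UTR. The median of all 10765 genes tested that could be matched to a coding transcript by symbol was 2654 bases, and that of the 2339 of them that were higher at MII was 1748 bases. Spearman's rho between transcript length and the MII log2 difference was -0.39 across the 34 genes and -0.36 across the 10765, a description across genes measured in the same libraries.

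Other genes of the same machinery were read for comparison from a list of 27. Of the 6 for further network, Mis18 and Knl1 proteins, 2 were higher at MII in Zar1/2-null oocytes and 0 lower, beside 21.5% and 10.3% of all genes. They were Apitd1, which encodes the histone-fold protein CENP-S, with 13.7 and 14.9 FPKM in WT and 84.3 and 61.4 in Zar1/2-null libraries (log2 fold change 2.25, standard error 0.17, limma adjusted p = 1.08e-06), and Stra13, which encodes its partner CENP-X, with 15.9 and 20.2 FPKM in WT and 83.0 and 82.0 FPKM in Zar1/2-null libraries (log2 fold change 2.14, standard error 0.16, limma adjusted p = 1.22e-06). Casc5, the gene for KNL1, had 2.49 and 3.04 FPKM in WT and 2.43 and 2.80 in Zar1/2-null MII libraries (log2 fold change -0.05), with overlap. Of 21 genes for checkpoint, passenger and motor proteins of the kinetochore, 6 were higher (Birc5, Aurkb, Nde1, Bub3, Kif2c and Bub1b) and 2 lower (Kif18a and Sgol2) at MII, beside the same 21.5% and 10.3% of all genes. In GV oocytes 1 of these 21 was higher and 9 lower (2.83% and 40.6% of all genes), and in growing oocytes 1 and 5 (10.6% and 24.4%).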

How the data were processed

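The study sequenced 12 libraries of 10 oocytes, 2 for each of 2 genotypes and 3 stages, and samples were grouped from their titles. The authors aligned reads to mm9 (Tophat 2.1.1), kept those with a unique position and summarised them per UCSC gene with Cufflinks 2.2.1. The deposited values, 1 table of 23230 genes, are FPKM that the authors rescaled by each library's proportion of ERCC spike-in. The table holds no counts, so the depth behind a value is unknown and no counting interval is given. An exact 0 can be a failed estimate. The factors were recovered from the decimals of the values, which return to 6 significant digits once divided, and run from 1 in WT growing to 0.225 in WT MII oocytes.

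The 11502 genes that reached 1 FPKM in any library were tested. One model with a mean for each of the 6 groups was fitted to log2(FPKM + 1) of all 12 libraries (limma 3.58.1, R 4.3.3, variance moderated with a trend on level), and the Benjamini-Hochberg adjustment ran over all genes tested (threshold 0.05). Fold changes on this scale understate the change of low genes. An exact permutation test of 2 against 2 libraries cannot go below p = 0.333 and was not used. For the 3-fold rule, group means under 1 FPKM were set to 1. On simulated data, 195 of 200 genes changed 4-fold at MII were recovered among 11502 genes, and 11 unchanged genes were called. The 34 genes, the other gene lists and the tests were chosen with earlier results of these data known. Values in every library are given for the 8 largest called changes in each direction of a comparison, the 5 highest genes of WT GV oocytes, Cenpa, Hjurp, the Ndc80 complex and the members of each complex described. Positions and 3′ ends come from an mm9 annotation (GENCODE), to which 93.6% of the genes tested could be matched by symbol. Alternatives were no ERCC scaling, median scaling, a pseudocount or floor of 0.1 FPKM, no filter, a mean of at least 5 FPKM, no trend, geometric means, the libraries of the groups compared alone, a replicate block, and leaving out each library. Replicate numbers do not pair the libraries (correlations of deviations from group means from -0.117 to 0.163 over 15 pairs of groups).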

Additional observations from a re-analysis of the deposited data

Results flagged for a closer look

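The change from GV to MII differed between genotypes, by the interaction term of the limma fit at an adjusted p of 0.05, upward for 11 of the 34 transcripts and downward for Cenpb, where 33.9% of all genes passed upward and 0.643% downward. The differences, Zar1/2-null change minus WT change on the log2 scale, were 3.72 for Mis18a, 3.0 for Spc24, 1.85 for Pmf1, 1.68 for Cenpw, 1.35 for Ska1, 1.18 for Cenpm, 1.07 for Cenpt, 0.96 for Cenpl, 0.75 for Hjurp, 0.71 for Cenpe and 0.65 for Cenph. For Cenpl the fall itself was much alike, with 2.79% of the GV mean kept in Zar1/2-null and 2.23% in WT oocytes. The difference of -0.65 for Cenpb sets a GV level of at most 1.23 FPKM against a listed 0 in all 4 MII libraries, and Cenpb was tested through its high group alone, so nothing is read from it. Mis18a, Spc24, Pmf1, Cenpw, Ska1, Cenpm and Cenpt were called under all 20 alternatives, and the other 5 were not.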

How the results depend on the processing

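The 7 transcripts higher in Zar1/2-null MII oocytes and 7 of the 12 interaction calls held under all 20 alternatives, as did 2 of the 12 GV calls (Cenpl and Zw10), 1 of the 11 growth calls (Ndc80), 18 of the 34 maturation calls and 0 of the 6 calls in growing oocytes. Cenpb at GV was called in the 18 alternatives that tested it, but it passed the filter through its high group alone, so nothing is read from that call. Oip5 on maturation was called in the 19 alternatives that tested it. With no ERCC scaling the higher and lower counts were 4 and 1 in growing and 5 and 2 in GV oocytes for Zar1/2-null against WT, with 10 lower at MII, 1 lower for WT growth, 7 higher and 20 lower for WT maturation, and 7 and 6 for the interaction. With median scaling they were 4 and 1, 5 and 2, 8 lower at MII, 1 lower for growth, 9 and 19 for maturation, and 7 and 7. A pseudocount of 0.1 FPKM gave 8 lower at MII, 7 lower for growth and 0 negative interactions. A mean of at least 5 FPKM gave 0 higher at GV and 0 negative interactions, since Cenpb was no longer tested. No filter gave 1 lower at MII. The libraries of the groups compared alone gave 5 lower at GV and 6 lower for growth, and a floor of 0.1 FPKM put 1 transcript past 3-fold upward at GV. The cause of these shifts was not tested.

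Leaving out each library gave 0 to 9 lower in growing oocytes, 0 to 2 higher and 4 to 12 lower at GV, 7 to 8 higher and 0 to 3 lower at MII, 2 to 12 lower for growth, 33 to 34 for maturation, 8 to 17 positive and 0 to 1 negative interactions, and past 3-fold 4 to 6 higher at MII and 0 to 1 lower at GV. The growing count fell to 0 without Zar1/2-null Growing replicate 2, 1 without WT Growing replicate 1 and 2 without WT Growing replicate 2. At GV the lower count was 4 without WT GV replicate 1 and 7 without Zar1/2-null GV replicate 1, which also took the higher count to 2 and 0. At MII the lower count was 0 without WT replicate 2 or Zar1/2-null replicate 2. For growth it was 2 without WT GV replicate 2 and 3 without either WT Growing library. The positive interactions were 17 without WT GV replicate 2.

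Estimates changed sign for WT maturation with no ERCC scaling in Cenpa (0.72), Cenpc1 (0.32), Cenph (0.73), Cenpi (0.050), Cenpn (1.00), Dsn1 (0.87), Ndc80 (0.76), Nuf2 (0.87), Ska2 (0.26), Cenpe (0.98) and Cenpf (0.12). With median scaling these were 1.07, 0.63, 1.08, 0.29, 1.35, 1.22, 1.09, 1.23, 0.59, 1.32 and 0.47, and Kntc1 was 0.0015. For the other comparisons, only transcripts called with ERCC scaling or under the alternative are listed. Cenpe at GV was 0.037 with no ERCC scaling and 0.12 with median scaling. For the interaction, Cenph (-0.036 and -0.11), Zwint (-0.81 and -0.84) and Zwilch (-0.75 and -0.78) turned under both, and Cenpe (-0.020) under median scaling. The interaction median over all the centromere and kinetochore transcripts was 0.51 with ERCC scaling. That median was -0.15 with no ERCC scaling and -0.22 with median scaling, so transcripts beyond those listed also turned.

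With the replicate number as a block, although the numbers do not pair the libraries, 1 transcript was higher and 8 lower in growing oocytes, 1 and 13 at GV, 7 and 3 at MII, 12 lower for growth, 34 lower for maturation, and 12 positive and 1 negative for the interaction. With no counts, the depth behind each call is unknown.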

Other observations

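Within Zar1/2-null oocytes, the means of 33 transcripts could be compared from GV to MII (Cenpb was at 0). Cenpe kept 99.1% of its GV mean, Cenpn 84.2%, Nuf2 79.2%, Cenph 77.6%, Mis18a 74.4% and Ndc80 72.0%. Cenpl kept 2.79%, Cenpq 3.72%, Spc25 5.60%, Cenpt 5.76% and Zwint 6.06%. The median log2 change of the 34 was -1.13 in Zar1/2-null and -2.57 in WT oocytes, and with the ERCC factor divided out it was -0.53 and -1.02.

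The balance of the 2 microtubule-binding partners also moved with stage. The ratio of Nuf2 to Ndc80, which does not depend on the scaling of a library, was 4.29 and 4.59 in WT growing, 8.06 and 8.57 in WT GV and 9.16 and 8.53 in WT MII libraries. In Zar1/2-null oocytes it was 3.90 and 3.40, then 5.07 and 5.51, then 6.47 and 5.20. The genotypes did not overlap at any stage, and the difference was not tested.

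The order of transcripts within a library is not changed by the spike-in factor. The percentiles given here rank means of 2 scaled libraries among the 11502 genes tested, a set filtered on scaled values. Spc24 stood at the 89.0th percentile in WT GV, the 62.8th in WT MII and the 90.3rd in Zar1/2-null MII oocytes. For Spc25 these were the 91.0th, the 79.1st and the 73.4th, and for Cenpn the 94.8th, the 98.4th and the 97.7th.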
